A study of Mus musculus with 4 samples.

Results

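MicroRNA hairpins typical of blood cells were followed through small RNA libraries of mouse sperm. The set was chosen by name as 4 hairpins of red cells (mmu-mir-451a, mmu-mir-144, mmu-mir-486a and mmu-mir-486b) and 4 of white cells (mmu-mir-142a, mmu-mir-142b, mmu-mir-150 and mmu-mir-223), written below without the species prefix. The deposited tables held 8 of the 8, out of 605 microRNA hairpins in all. The libraries came from spermatozoa of the cauda epididymis, where sperm are stored, of adult C57BL/6 mice, 1 mouse per library. The crosses are labelled extra cross to wildtype (2 mice) and original cross (2 mice), and strain, age and cell type were the same in both. The title of the study sets sperm that can undergo silencing of a LoxP site, the target sequence of Cre recombinase, against sperm that cannot. The labels do not say which cross is which, and they give no genotype beyond the cross.

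MicroRNAs are cut from hairpin precursors and, loaded into an Argonaute protein, pair through their seed with messenger RNAs and lower their output. Blood cells carry a few of them at very high levels. The mir-144 and mir-451a hairpins lie next to each other, are made under the red cell factor GATA1 and accumulate as red cells mature. miR-451a is matured by the slicing activity of AGO2 and not by Dicer. The mir-486a hairpin is abundant in red cells and in muscle. In white cells, mir-142a is made in nearly all blood lineages, mir-150 is highest in mature lymphocytes, and mir-223 is highest in neutrophils and other myeloid cells. In such bulk libraries, fewer cells of a type and less RNA per cell cannot be told apart.

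Most of the hairpins sit opposite another one on the other strand of a shared stretch of genome, which bears on how their values are read. On mouse chromosome 11 (GRCm38), mir-144 lies at chr11:78073005-78073070 and mir-451a at chr11:78073170-78073241, both on the plus strand, with 99 bases between them and no longer annotated gene around them. A further hairpin in the tables, mir-451b, occupies the same 72 bases as mir-451a on the minus strand and is its exact reverse complement. The mir-142a hairpin (chr11:87756864-87756927, plus strand) is covered by mir-142b (chr11:87756841-87756955, minus strand), within an intron of the long noncoding gene Mir142hg. On chromosome 8, mir-486a (chr8:23142555-23142682, plus strand) and mir-486b (chr8:23142573-23142662, minus strand) overlap within an intron of Ank1, the gene of a red cell membrane skeleton protein, and inside the antisense gene Gm15816. The mir-150 hairpin (chr7:45121757-45121821, plus strand) lies inside no longer gene, and mir-223 (chrX:96242817-96242926, plus strand) overlaps an exon of the noncoding gene F630028O10Rik. Sequences of RefSeq (GRCm38.p6) are given for the hairpins where strand and seed matter. The mir-451a hairpin is shown first, 5′ to 3′, with the mature RNA in capitals at positions 17 to 38 of the hairpin, running from the stem into the loop.
mir-451a hairpin: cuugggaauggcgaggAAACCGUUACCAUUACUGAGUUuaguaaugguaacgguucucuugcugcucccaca
In the mature sequences that follow, capitals mark the seed, bases 2 to 8.
miR-451a: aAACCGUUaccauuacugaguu
miR-144-3p: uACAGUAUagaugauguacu
miR-142a-5p: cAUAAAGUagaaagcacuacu
miR-142a-3p: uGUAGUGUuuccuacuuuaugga
miR-142b: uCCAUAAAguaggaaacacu
miR-223-3p: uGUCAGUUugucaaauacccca
No seed was shared between any of the 10 mature sequences compared, which were both arms where the table holds them. All 20 bases of miR-142b are found in the reverse complement of miR-142a-3p.

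Values were deposited as RPM (reads in 1000000 reads, scaled by the authors), with 1 value per hairpin and no separation of its arms. The value of 1 read, taken as the commonest value of the microRNA class, was 0.642, 0.238, 1.58 and 0.561 RPM in extra-cross replicates 1 and 2 and original-cross replicates 1 and 2. On that scale all 12 values of mir-144, mir-150 and mir-223 were whole reads within 0.02 reads. Of the 12 values of mir-451a, mir-486a and mir-142a, 7 were whole and the other 5 lay 0.5 reads off a whole number. The partners mir-486a and mir-486b had equal values in all 4 libraries, as did mir-451a and mir-451b, and mir-142a and mir-142b differed by at most 1 read. Entries of a pair are therefore not independent members, and from which strand the reads came cannot be told from these values. The thinnest value was that of mir-144 in original-cross replicate 2, at 19 reads, and the deepest that of mir-150 in extra-cross replicate 1, at 5426 reads. Intervals given below are 95% Poisson intervals by the exact formula on such reads and cover counting error only. For hairpins with an opposite-strand entry they are approximate. The equal values and the offsets of 0.5 reads are what an even split of reads between the entries would give. Each entry would then hold only a part of the reads of its pair.

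Among the red cell hairpins, each level was highest in extra-cross replicate 1, next in original-cross replicate 1 and low in both libraries numbered 2. The mir-451a hairpin had 918 and 55.5 RPM in extra-cross replicates 1 and 2, against 251 and 42.1 RPM in original-cross replicates 1 and 2. That is 487 ± 610 RPM in the extra cross and 147 ± 148 RPM in the original cross (SD, n = 2 each), with an SD above the mean in both crosses. The groups overlapped, since the extra-cross library numbered 2 lay below the original-cross library numbered 1. Its neighbour mir-144 had 204 and 29.7 RPM in the extra cross, against 60.04 and 10.7 RPM in the original cross. For mir-144 the libraries kept the same order as for mir-451a. The mir-486a hairpin, and mir-486b with equal values, had 2790.2 and 101 RPM in the extra cross and 841 and 108 RPM in the original cross. Here the libraries numbered 2 hardly differed, with Poisson intervals of 91.2 to 111 RPM in the extra cross and 93.0 to 124 RPM in the original cross. From the lowest to the highest of the 4 libraries, mir-486a spanned 27.7-fold, mir-451a 21.8-fold and mir-144 19.2-fold.

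The white cell hairpins did not share a single pattern. The lymphocyte hairpin mir-150 had 3483 and 388 RPM in the extra cross, against 3633 and 571 RPM in the original cross. Both libraries numbered 1 were high and both numbered 2 low, so the groups of the crosses overlapped. By RPM per hairpin it was the 13th and 38th of the microRNA class in the extra cross and the 11th and 27th in the original cross, the most abundant of the 8. Summed, mir-486a and mir-486b had 5580 and 201 RPM in the extra cross and 1681 and 215 RPM in the original cross. Only in extra-cross replicate 1 did that sum lie above mir-150. The pan-haematopoietic mir-142a had 483 and 218 RPM in the extra cross, against 419 and 181 RPM in the original cross. Its partner mir-142b had 484 and 218 RPM in the extra cross, against 419 and 181 RPM in the original cross. The span of mir-142a over the libraries was 2.67-fold, far narrower than that of mir-150 at 9.37-fold. The myeloid mir-223 was the lowest of the white cell hairpins, with 33.4 and 25.7 RPM in the extra cross and 56.9 and 28.1 RPM in the original cross. It rested on 36 to 108 reads and spanned 2.22-fold.

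**Figure D1:**
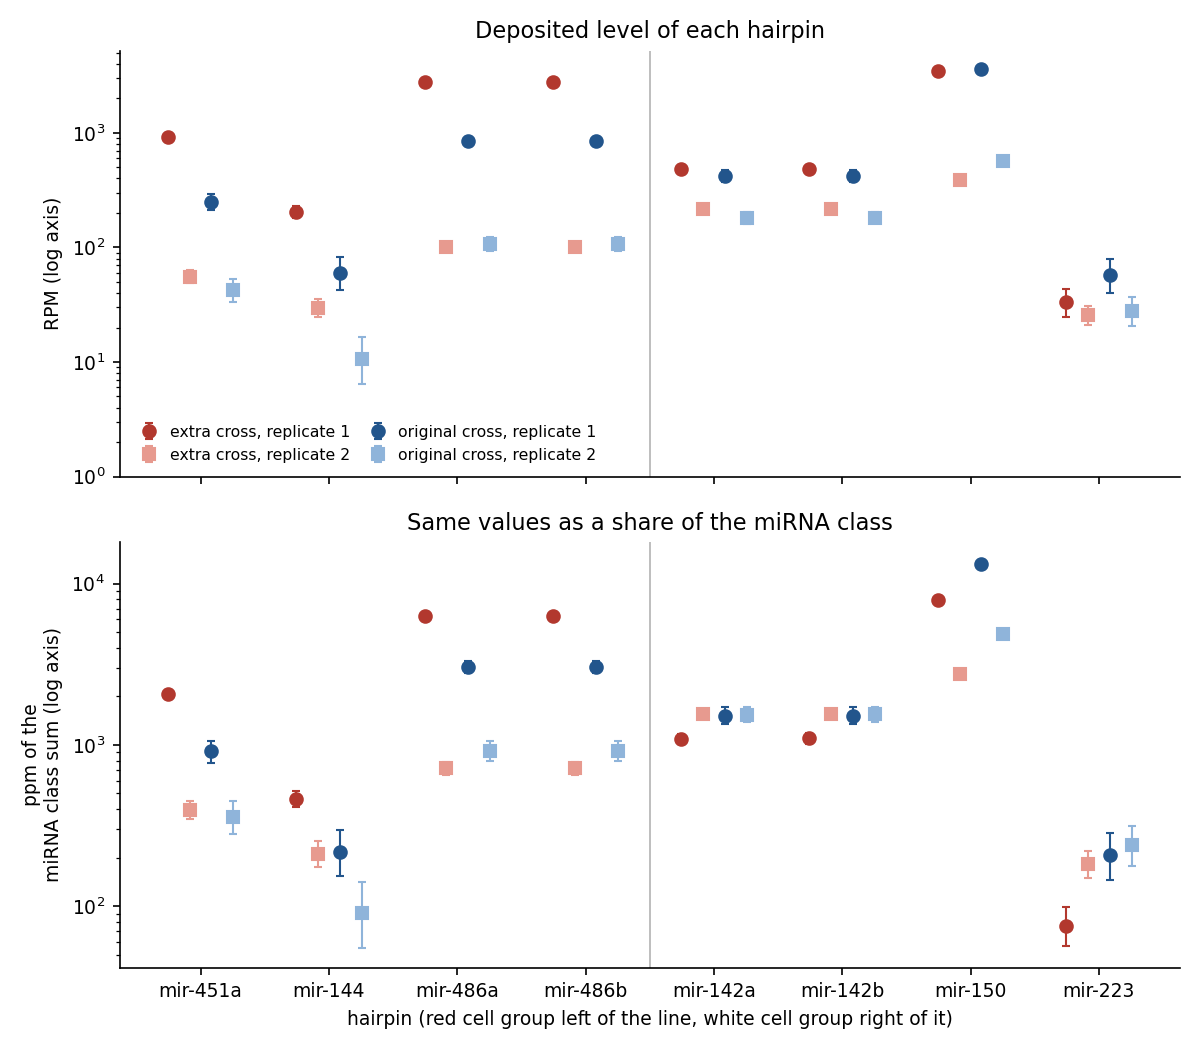
Level of the 8 blood cell hairpins in each of the 4 libraries, as deposited RPM (upper panel) and in ppm (parts in 1000000) of the microRNA class sum (lower panel), both on log axes, with 95% Poisson intervals. Libraries numbered 1 (circles) lie above those numbered 2 (squares) of the same cross in RPM for every hairpin, by 27.7-fold for mir-486a in the extra cross and by 1.30-fold for mir-223, while the share of mir-142a stays between 1094 and 1554 ppm.

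The comparison the labels name is that of the crosses, and it was tested with limma on log2(RPM + 1) over the 760 features of the 5 small RNA classes that averaged 10 RPM or more, a minimum that all 8 hairpins passed. None of the 8 passed a Benjamini-Hochberg adjusted p of 0.05 (0 of 8), and none had an unadjusted p below 0.05. Across all features 0 passed (0%), and 112 (14.7%) had an unadjusted p below 0.05. On the log2 scale the difference was 1.57 ± 1.21 (SE) for mir-144, 1.13 ± 1.56 for mir-451a and 0.82 ± 1.83 for mir-486a. Among the white cell hairpins it was 0.24 ± 0.71 for mir-142a, -0.31 ± 1.39 for mir-150 and -0.44 ± 0.51 for mir-223. The limma adjusted p was 0.995 for each of the 8. In this fit the 95% interval of mir-451a ran from -2.87 to 5.13. Neither a large rise nor a large fall could thus be told from no difference there. With replicate number added as a block 4 of 8 passed, all of them red cell hairpins higher in the extra cross. The interval of mir-451a then ran from 0.49 to 1.77. The 4 include mir-486a and mir-486b, whose values are equal. Of all 760 features 171 passed with the block, 36 of them higher. Among the 206 tested microRNA hairpins 39 passed, 32 of them higher. The spread of that fit was taken wholly from the trend over features. The median over the 8 was 0.53, beside 0.20 over the 206 tested microRNA hairpins and -0.12 over all 760 features.

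Within each table, which holds 1 library of each cross, mir-451a and mir-486a differed more between the crosses in replicate 1 than in replicate 2, beyond counting error. The mir-451a level was 3.66-fold higher in the extra cross in replicate 1 (95% counting interval 3.10 to 4.33) and 1.32-fold in replicate 2 (1.01 to 1.74). For mir-144 the folds were 3.40 (2.42 to 4.89) and 2.79 (1.71 to 4.79), with overlapping intervals. For mir-486a they were 3.32 (3.03 to 3.64) and 0.934 (0.785 to 1.11), so its difference was within counting error in replicate 2. These intervals compare libraries, not crosses. In the white cell group the folds of the extra cross over the original cross in replicates 1 and 2 lay on either side of 1: mir-142a was at 1.15 and 1.21, mir-150 at 0.959 and 0.680, and mir-223 at 0.587 and 0.915. In each table alike, 4 of 8 were higher in the extra cross (mir-451a, mir-144, mir-142a and mir-142b), where 42.7% of tested microRNA hairpins and 19.9% of all tested features were. Another 2 of 8 (mir-150 and mir-223) were lower in both, where 23.3% of tested microRNA hairpins and 46.3% of all tested features were, and mir-486a and mir-486b changed sign between the tables. For 0 of 8 did both extra-cross libraries lie above both original-cross libraries, which held for 11.7% of tested microRNA hairpins and 4.47% of all tested features.

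**Figure D2:**
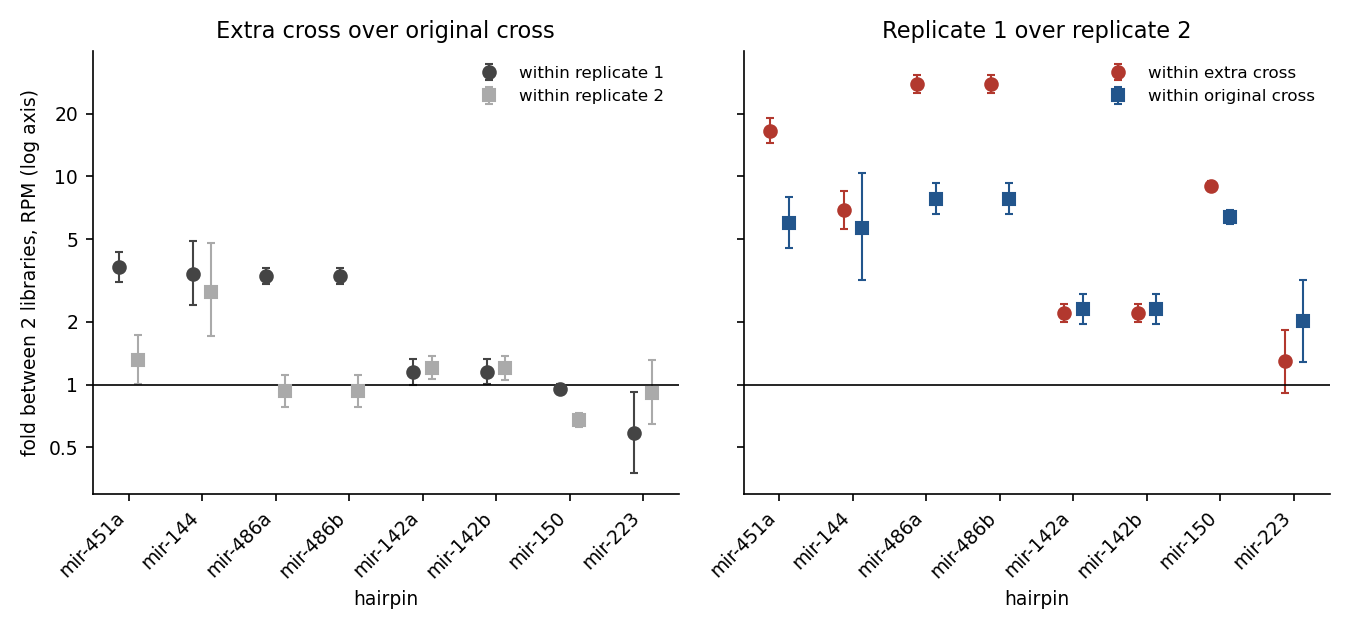
Fold between pairs of libraries for each hairpin on a log axis, with 95% counting intervals. Left, extra cross over original cross within each replicate number, from 0.587 (mir-223) to 3.66 (mir-451a); right, replicate 1 over replicate 2 within each cross, from 1.30 (mir-223) to 27.7 (mir-486a), with every point above 1.

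The larger difference lay between the replicate numbers, that is between the 2 deposited tables. All 8 hairpins were higher in replicate 1 than in replicate 2 in both crosses and 0 of 8 lower, where 82% of tested microRNA hairpins and 51.1% of all tested features were higher and 6.8% and 27.4% were lower. For 8 of 8, both libraries numbered 1 lay above both numbered 2, which held for 73.3% of tested microRNA hairpins and 34.1% of all tested features. In the extra cross the fold of replicate 1 over replicate 2 was 27.7 for mir-486a, 16.5 for mir-451a, 8.98 for mir-150 and 6.87 for mir-144. In the original cross it was 7.80 for mir-486a, 5.97 for mir-451a, 6.37 for mir-150 and 5.63 for mir-144. The remaining hairpins moved less, with folds of 2.21 and 2.31 for mir-142a and of 1.30 and 2.03 for mir-223 in the extra and the original cross. What the replicate numbers stand for, beyond 1 mouse per library and cross, is not given in the sources used here. Per the labels' protocols the libraries were run together on 1 lane. Whether the values of the 2 tables were computed together is likewise not given, and RPM levels are set side by side across tables on that basis.

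A limma fit with replicate number as its only term, over the same 760 features, called 6 of the 8 hairpins higher in replicate 1. Of all features 149 passed (19.6%), 75 of them higher in replicate 1 (9.87%), and among the 206 tested microRNA hairpins 63 passed, each of them higher. At an unadjusted limma p below 0.05 were 7 of the 8 hairpins and 249 of all features (32.8%). The log2 fold change was 3.87 ± 0.59 (SE) for mir-486a and mir-486b, with a limma adjusted p of 0.0144. For mir-451a it was 3.29 ± 0.66 (limma adjusted p = 0.0287), and for mir-150 2.92 ± 0.25 (limma adjusted p = 0.00469). The call of mir-451a ended with no filter (limma adjusted p = 0.0895) and with median-ratio factors (limma adjusted p = 0.0568). The hairpins mir-142a and mir-142b also rose, at 1.17 ± 0.25 (limma adjusted p = 0.0342), but for mir-142a the call ended with no filter (0.0826), with no variance trend (0.0568) and under each other scaling (0.0992 to 0.742). Values that did not pass were 2.56 ± 0.77 for mir-144 (limma adjusted p = 0.0861) and 0.68 ± 0.40 for mir-223 (limma adjusted p = 0.334). With cross type added as a block 7 of 8 passed, mir-144 included (limma adjusted p = 3.04e-11). In that fit 300 of all 760 features passed, as did 145 of the 206 tested microRNA hairpins. Its spread was taken wholly from the trend over features. The median over the 8 was 2.74, beside 1.17 over the tested microRNA hairpins and 0.29 over all features. Ordered by this fold change among the 206 hairpins, mir-486a and mir-486b held the top, mir-150 was at place 6, mir-144 at place 7, mir-142a at place 98 and mir-223 at place 152. The call was lost for 5 of the 6 without extra-cross replicate 2, when mir-150 alone passed (limma adjusted p = 0.0475) and 24 of 760 features did. The log2 fold changes then were 3.82 for mir-486a, 3.48 for mir-451a and 1.31 for mir-142a. Without original-cross replicate 2 the calls of mir-142a and mir-142b were lost (limma adjusted p = 0.243 for each), and 98 of 760 features passed.

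**Figure D3:**
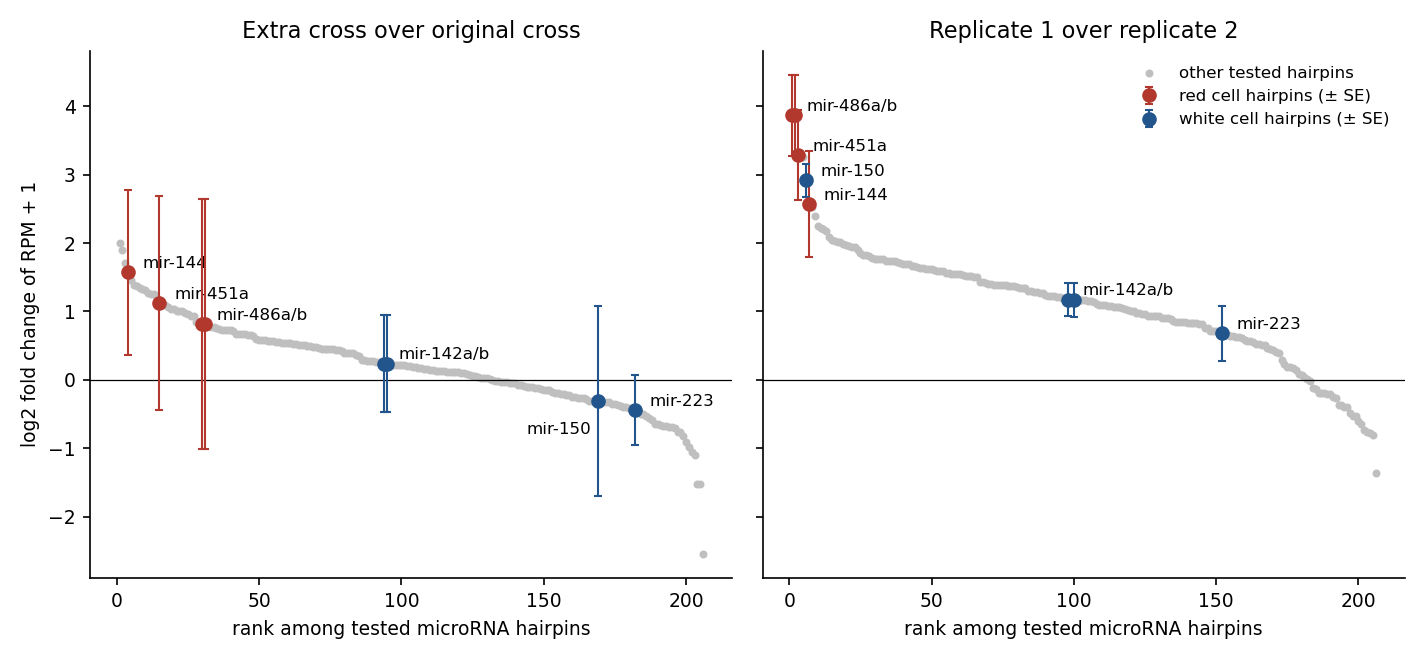
Log2 fold changes of RPM + 1 for the 206 tested microRNA hairpins, ordered from highest to lowest, for extra over original cross (left) and replicate 1 over replicate 2 (right), with the blood cell hairpins marked and their SE drawn. On the right mir-486a, mir-451a, mir-150 and mir-144 lie between 2.56 and 3.87 at the upper end, and on the left mir-144 reaches 1.57 with an SE of 1.21.

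The microRNA class as a whole was higher in replicate 1, at 441544 and 140437 RPM in the extra cross and 275809 and 117322 RPM in the original cross, so the hairpins were also expressed as parts in 1000000 (ppm) of that class. By this measure mir-486a had 6319 and 716 ppm in the extra cross, against 3048 and 918 ppm in the original cross. The mir-451a hairpin had 2080 and 395 ppm in the extra cross, against 911 and 359 ppm in the original cross. Both remained higher in replicate 1, by 8.82-fold and 5.26-fold in the extra cross and by 3.32-fold and 2.54-fold in the original cross. With libraries rescaled to the sum of the class, mir-486a, mir-486b and mir-451a passed the replicate comparison (limma adjusted p = 0.0052, 0.0052 and 0.0379). On that scale 188 of the 760 features passed, 5 of them higher in replicate 1 and 183 lower, and the median of all features was -1.09. The value of mir-150 was then 1.47 ± 0.54 (SE) with a limma adjusted p of 0.0518. The white cell hairpin mir-142a spanned 1.42-fold as a share, at 1094 and 1554 ppm in the extra cross and 1518 and 1542 ppm in the original cross, and its log2 fold change on this scale was -0.26 ± 0.58 (limma adjusted p = 0.742). The share of mir-223 was lowest in extra-cross replicate 1, at 75.6 ppm, where the red cell hairpins were highest, and was 183 ppm in extra-cross replicate 2 and 206 and 239 ppm in the original cross.

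Ratios within a library do not depend on how that library was scaled. That of red to white cell hairpins too set extra-cross replicate 1 apart. The red cell hairpins (mir-451a, mir-144 and mir-486a) summed to 3913 and 186 RPM in the extra cross and to 1152 and 160.4 RPM in the original cross. The white cell hairpins (mir-142a, mir-150 and mir-223) summed to 3999.6 and 632 RPM in the extra cross and to 4108 and 779.5 RPM in the original cross. Their ratio, red over white, was 0.978 and 0.294 in the extra cross, against 0.280 and 0.206 in the original cross. Both extra-cross values lay above both original-cross values, though extra-cross replicate 2 lay only just above original-cross replicate 1. The log2 difference was 1.16, with 1.803 within replicate 1 and 0.51 within replicate 2, and an exact two-sided permutation test gave p = 0.333, the smallest that 2 against 2 allows. An even split of reads within pairs would make the sum over both entries the fuller value. With both entries of every opposite-strand pair summed, the ratios were 1.70 and 0.402 in the extra cross and 0.496 and 0.323 in the original cross, and the groups overlapped. Inside the red cell group, mir-451a exceeded mir-144 by 4.50-fold and 1.87-fold in the extra cross and by 4.18-fold and 3.95-fold in the original cross, in RPM per hairpin. Inside the white cell group, the ratio of mir-150 to mir-142a was 7.21 and 1.78 in the extra cross, against 8.68 and 3.15 in the original cross.

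Other hairpins that followed the same course over the 4 libraries were looked for among the 198 other tested microRNA hairpins, by the root mean square difference of centred log2(RPM + 1). Nearest to mir-451a came its opposite-strand copy mir-451b (difference 0), then mir-96 (0.40) and mir-463 (0.67). The mir-96 hairpin, known from sensory and epithelial cells, had 424 and 36.4 RPM in the extra cross, against 253 and 30.3 RPM in the original cross. Nearest to mir-150 came mir-6240 (0.27), mir-375 (0.31) and mir-96 (0.44). The mir-375 hairpin, of endocrine and epithelial cells, had 2056 and 412.3 RPM in the extra cross and 2718 and 487.5 RPM in the original cross.

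Further hairpins found in blood cells but also in many other tissues were followed beside the 8. Of 15 listed, 13 were tested, and 6 passed limma as higher in replicate 1 and 0 as lower, with a median log2 fold change of 1.23, close to the 1.17 of all tested microRNA hairpins. Between the crosses 0 of the 13 passed, with a median of 0.0058. The most abundant was mir-191, with 7793 and 2281 RPM in the extra cross and 2822 and 1961 RPM in the original cross. The mir-181a-1 hairpin, of lymphocyte development, had 2994 and 1213 RPM in the extra cross, against 3718 and 1429 RPM in the original cross. Its near copy mir-181a-2 had 3087 and 1225 RPM in the extra cross, against 3728 and 1443 RPM in the original cross. The mir-16-2 hairpin, of a pair of copies present in most cells, had 763 and 277 RPM in the extra cross and 638 and 319 RPM in the original cross.

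Fragments of blood cell messenger RNAs in the same libraries gave a readout that the choice of hairpins did not use. They were expressed in ppm of the RefSeq class, because the RefSeq sum of original-cross replicate 1 was 7926 RPM, against 131739 to 155300 RPM in the other libraries. Fragments of 6 haemoglobin genes summed to 43.9 and 78.7 ppm in the extra cross, against 38.0 and 43.3 ppm in the original cross. They were highest in extra-cross replicate 2, where the red cell hairpins were at 186 RPM. The haemoglobin values rest on few reads, 9 and 45 in the extra cross and 12 in original-cross replicate 2. The remaining library, replicate 1 of the original cross, held 0.302 RPM of them, under the 1-read value of its microRNA class, so no number of reads is given for it. As shares of their own class, the haemoglobin fragments spanned 2.07-fold over the 4 libraries, or 1.81-fold without that one, and the red cell hairpins spanned 6.70-fold (24.4-fold in RPM). Among single genes the beta globin Hbb-bs had 13.8 and 10.6 ppm in the extra cross and 13.9 and 14.8 ppm in the original cross. Alpha globin Hba-a1 had 2.44 and 22.7 ppm in the extra cross, against 3.80 and 10.8 ppm in the original cross. Of the other red cell transcripts, the mitophagy receptor gene Bnip3l had 45.1 and 19.2 ppm in the extra cross and 20.9 and 18.1 ppm in the original cross. Fech, of the last step of haem synthesis, had 9.75 and 8.16 ppm in the extra cross and 10.1 and 18.1 ppm in the original cross, and Hbb-b1 had 13.8 and 9.76 ppm in the extra cross and 10.1 and 7.53 ppm in the original cross. Globin genes include near-identical copies, so how their reads were split between copies is uncertain and the sum is the safer value.

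White cell transcripts were better covered. The list summed to 1683 and 1026 ppm in the extra cross and 1353 and 1669 ppm in the original cross, with 4 of the 20 genes in the tables at 0 in each library. Cd74, the invariant chain of antigen-presenting cells, had 443 and 259 ppm in the extra cross and 342 and 567 ppm in the original cross. Lyz2, the lysozyme of macrophages and neutrophils, had 456 and 226 ppm in the extra cross, against 453 and 265 ppm in the original cross. The class II gene H2-Aa had 143 and 73.4 ppm in the extra cross, against 122 and 173 ppm in the original cross. Its partner H2-Ab1 had 127 and 86.5 ppm in the extra cross, against 95.1 and 129 ppm in the original cross. The neutrophil genes S100a8 and S100a9 were listed at 0 in 3 of 4 libraries each. Of 18 blood cell genes with a mean of at least 10 ppm, 0 passed limma between the crosses over 4823 RefSeq genes (0% of which passed), 0 had an unadjusted p below 0.05, and 9 of 18 had a positive value. Between the replicate numbers 0 of 18 passed as well, where 2 of 4823 genes did (0.0415%), and 2 of the 18 had an unadjusted p below 0.05, in opposite directions. These were Lyz2, with a log2 fold change of 0.89 ± 0.32 (SE), and Cd52, with -1.33 ± 0.49 (limma adjusted p = 0.922 for both). Both were taken from the white cell list, and which cells their fragments came from was not tested. Cd52 had 48.7 and 101 ppm in the extra cross, against 22.8 and 72.2 ppm in the original cross. For Hbb-bs the log2 fold change between the replicate numbers was 0.14 ± 0.67 (SE) with a limma adjusted p of 0.986. The platelet transcripts Pf4, Tubb1 and Itga2b summed to 4.87 and 15.7 ppm in the extra cross and 11.4 and 0 ppm in the original cross.

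**Figure D4:**
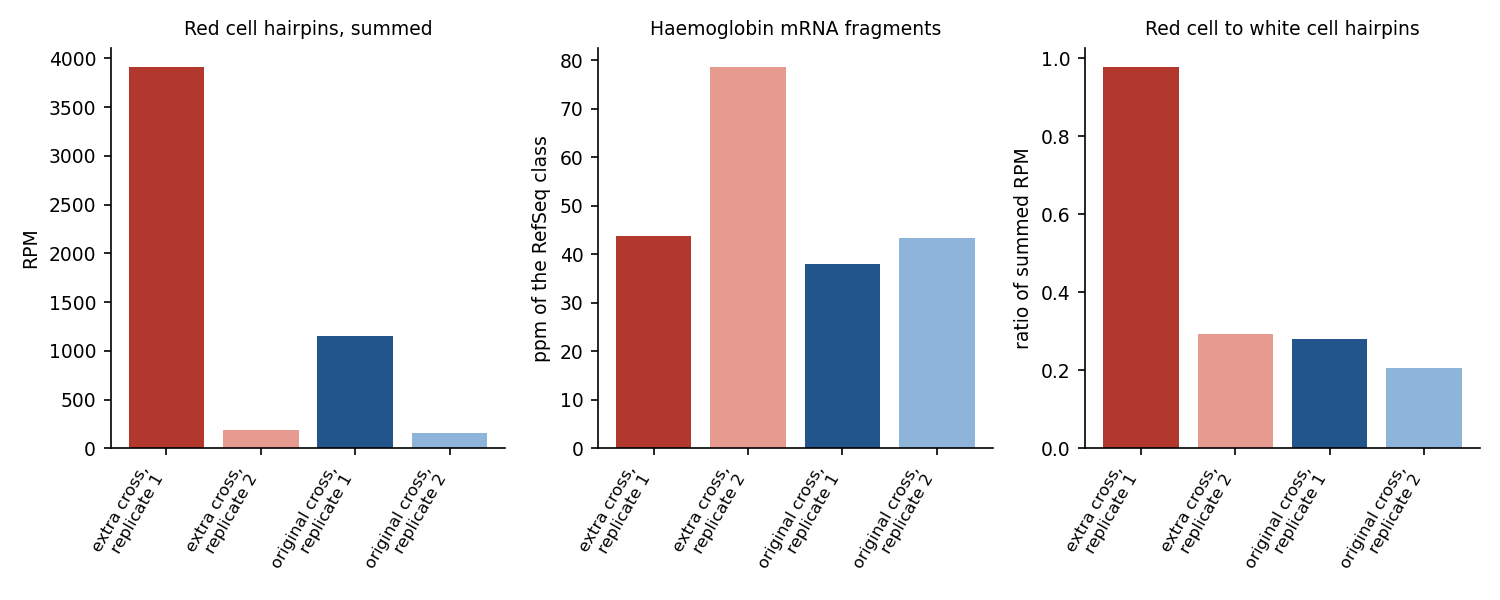
Summed RPM of the red cell hairpins mir-451a, mir-144 and mir-486a (left), fragments of 6 haemoglobin genes in ppm of the RefSeq class (middle), and the ratio of red cell to white cell hairpins (right), 1 bar per library. The hairpin sum is highest in extra-cross replicate 1 (3913 RPM), while the haemoglobin fragments are highest in extra-cross replicate 2 (78.7 ppm).

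Hairpins and transcripts of other cells varied over the same libraries, and their part in the results was not tested. The 5 epithelium hairpins, among them mir-141, mir-429, mir-200a and mir-200b, summed to 10408 and 5315 RPM in the extra cross and 4394 and 2055 RPM in the original cross. The 5 stroma hairpins, among them mir-143, mir-145a, mir-199a-1 and mir-199a-2, summed to 3022 and 4638 RPM in the extra cross and 7913 and 5749 RPM in the original cross. The 4 spermatogenic hairpins, of which mir-34c and mir-34b held nearly all and mir-449a and mir-449c lay below 5 RPM, summed to 1813 and 1205 RPM in the extra cross and 1923 and 749 RPM in the original cross. Fragments of 9 sperm transcripts, among them Prm1, Odf1, Gapdhs and Tnp1, summed to 41.4 and 31.5 ppm of the RefSeq class in the extra cross, against 22.8 and 57.8 ppm in the original cross. Of those 9, 2 and 1 were at 0 in the extra cross and 7 and 2 in the original cross, and the highest single value among the named ones was 18.1 ppm. The scale of the libraries rests on 1557766 and 4205692 reads in the extra cross and 632859 and 1782506 reads in the original cross, so replicate 1 was also the shallower library of each cross.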

How the data were processed

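Small RNA of cauda sperm from 4 mice was sequenced. Per the labels' protocols, sperm was washed, each mouse was extracted separately with Trizol, RNA was size-selected on a gel, and TruSeq small RNA libraries were run together on 1 lane. CASAVA 1.8.2, Bowtie 1.1.2 and mm10 are named, without role or order, per the submitters' processing notes. How reads with several matches were assigned is not given in the sources used here. RPM values were what the authors deposited, in 2 tables, 1 per replicate number. Features absent from 1 of them were set to 0 there.

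Tables were joined with Python 3.11.15 and pandas 2.3.3 (numpy 2.4.6, scipy 1.17.1, matplotlib 3.10.9). In each library 70.3% to 73.5% of microRNA values above 0 were whole reads within 0.02, so no count model was run. The 5 small RNA classes were fitted with limma 3.58.1 in R 4.3.3 on log2(RPM + 1), with a mean of at least 10 RPM, a variance trend and Benjamini-Hochberg adjustment over all tested features. RefSeq values were scaled to the class, and 81.7% of transcripts matched a gene symbol in the RefSeq table (GRCm38.p6). Loci came from GENCODE M21. Fits were tested on simulated data. Fold changes on this scale understate those of low features. The members, lists and settings were chosen with earlier results of these data known. The genes named are the 8 hairpins, the 3 nearest hairpins of mir-451a and mir-150, and up to 4 of the most abundant entries of each marker list; Hba-a1, Cd52, S100a8, S100a9 and platelet genes outside that rule were named after their values were seen. Alternatives were other pseudocounts, filters, scalings, libraries left out, and blocks; the sum over both entries of opposite-strand pairs was added after seeing the data.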

Additional observations from a re-analysis of the deposited data

How the results depend on the processing

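Precision is limited by 2 mice per cross and, for mir-144, by 19 reads in its thinnest library. Between the crosses, 0 of 8 hairpins passed under every alternative run but one, in which 4 passed with replicate number as a block. These were the red cell hairpins mir-144, mir-451a, mir-486a and mir-486b, each higher in the extra cross (limma adjusted p = 0.000116, 0.0035, 0.0231 and 0.0231). In that fit 171 of 760 features passed, 36 of them higher. Among the 206 tested microRNA hairpins 39 passed, 32 of them higher. The spread of the fit was taken wholly from the trend over features. The labels do not say that libraries with the same number are pairs. Differences between replicates 1 and 2 in the 2 crosses correlated at 0.87 over all features and 0.64 over the 206 tested microRNA hairpins. Libraries of the same number thus tended to move together, though there were only 2 per cross. The block gave the ratio of red to white cell hairpins p = 0.5 in an exact test, the smallest that 2 differences allow. Log2 fold changes between the crosses kept their sign under other pseudocounts and filters, but with libraries rescaled to the microRNA sum those of mir-142a and mir-142b were -0.23, and with median-ratio factors, which moved the median of all features from -0.12 to 0.19, that of mir-150 was 0.014. Leaving out each library in turn gave -0.88 to 3.14 for mir-451a, -1.57 to 3.21 for mir-486a and mir-486b, -0.37 to 0.84 for mir-142a, -0.36 to 0.84 for mir-142b, -1.89 to 1.27 for mir-150, -0.93 to 0.060 for mir-223 and 0.20 to 2.94 for mir-144. With 1 library left in a cross, that library is assumed to vary like the other cross. Between the replicate numbers, 3 of 8 passed with no filter on low values (80 of 2150 features), 3 with median-ratio factors (101 of 760), 3 with the microRNA sum (188 of 760), 4 with the sum of the 5 small RNA classes (109 of 760), 4 with no variance trend (141 of 760), 7 with cross type as a block (300 of 760), and 1 to 7 with a library left out (24 to 256 of 760). With cross type as a block 145 of the 206 tested microRNA hairpins passed as well. The cause of the difference between the replicate numbers was not tested. The log2 difference of the ratio ran from 0.29, without extra-cross replicate 1, to 2.03, without extra-cross replicate 2. Summing all 8 hairpins gave 1.02 (exact p = 0.667).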
